A study of Homo sapiens with 12 samples.

Results

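The transcripts described here belong to 10 genes of the ATF4 stress response and of cystine use, ATF4, ATF3, DDIT3, TRIB3, CHAC1, SLC7A11, ADM2, ASNS, SESN2 and DDIT4, among 23228 genes in the count tables. They were chosen by name, and several of them because their counts were low with each inhibitor alone and less low with both. Their levels and differences between arms are therefore given as a description with no test, and a sentence that counts how many were called carries no evidence about them. All 10 were among the 14189 genes that passed the filter on low counts.

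The cells were C4.2B, an established human prostate cancer line of the castration-resistant kind. Polyadenylated RNA was sequenced from 12 libraries in 4 arms, each with replicates A, B and C, taken from plates seeded separately. The arms were DMSO, the vehicle, GDC, which received 0.5 µM of GDC-0941, an inhibitor of all class I PI3K isoforms, GSK, which received 5 µM of GSK126, an inhibitor of EZH2, and COMBO, which received the pair at these doses. EZH2 places the repressive trimethyl mark on histone H3 lysine 27. Every arm was held for 24 h in 10% charcoal-stripped serum, a medium low in androgens, and GSK and COMBO had also received GSK126 for the 6 days before. GSK126 was therefore present for longer than GDC-0941, and the effect of the agent and of its duration cannot be told apart. Nothing says that the plates came from separate passages, so p-values measure only the spread between these samples, and a single line limits the data to that line.

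ATF4 is a basic leucine zipper transcription factor. Kinases that sense unfolded protein, amino acid shortage, haem shortage or viral RNA phosphorylate eIF2α, which slows most translation but lets ribosomes reach the ATF4 reading frame. The kinase complex mTORC1, downstream of PI3K, also raises ATF4 in growing cells. ATF4 protein joins C/EBP and other partners on composite elements near genes for amino acid uptake and synthesis, transfer RNA charging and redox balance. Because much of this control acts on translation, mRNA levels need not follow ATF4 protein, which was not measured in these libraries.

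A library held 8785218 to 44437751 counts in genes, and DMSO replicate C was the deepest. Levels are given in CPM, counts divided by a library size that was scaled by TMM, on which 3 counts, the most that a count of 0 allows, are worth 0.0722 to 0.330 CPM. That floor covers counting error only. The 8 luminal prostate markers, KLK3 and KLK2 among them, had counts in every arm. Their summed levels were 3292 to 3445 CPM with DMSO, 5046 to 5294 in GDC, 4091 to 4498 in GSK and 5449 to 5957 with COMBO. The markers did not all move with the sum. HOXB13, alone among the 8, was lower in COMBO than in DMSO, with means of 484 CPM in DMSO, 397 in GSK and 304 in COMBO. STEAP2 was at 661 CPM in DMSO, 562 in GSK and 912 in COMBO. The 7 stromal, immune and endothelial markers summed to 45.9 to 53.8 CPM with DMSO, 52.1 to 60.6 in GDC, 100 to 111 in GSK and 126 to 143 with COMBO, with 3, 3, 0 and 2 of them at 0 counts over the arm. Reads outside genes took 14.2% of the sequenced reads with DMSO, 15.6% in GDC, 18.8% in GSK and 21.8% with COMBO (means of 3 libraries). EZH2 mRNA itself was at 105 CPM ± 2.75 with DMSO, 81.8 ± 6.93 in GDC, 56.3 ± 0.757 in GSK and 34.9 ± 0.815 with COMBO (each with its SD, n = 3). It fell in each inhibitor arm (log2 fold changes of -0.36, -0.89 and -1.58, adjusted p of 3.50e-05, 2.44e-11 and 1.37e-15 by edgeR's quasi-likelihood test). These quantities move with the arms, and their part in the results below was not tested.

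Promoter windows of RefSeq (GRCh38.p14, 250 bases before to 50 after an annotated start) were held for 9 of the 10 genes, all but SLC7A11. They were searched on both strands for TGATGNAA, a shortened form of the C/EBP-ATF composite element that ATF4 dimers bind. The motif was present in the windows of 3 members, ATF3, ASNS and CHAC1. It was present in 3.62% of all 35116 windows and in 4.46% of the 27305 genes with a window. The 30 bases around each match are shown because the motif is of the kind that ATF4 dimers bind, with the motif in capitals and the gene's own strand read 5′ to 3′.
ATF3, chr1:212565205-212565234, plus strand: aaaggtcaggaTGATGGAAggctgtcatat
ASNS, chr7:97872458-97872487, minus strand: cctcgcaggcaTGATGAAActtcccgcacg
CHAC1, chr15:40953251-40953280, plus strand: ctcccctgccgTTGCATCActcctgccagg
The motif lay 191 to 184 bases before an annotated start in ATF3, 68 to 61 in ASNS and 209 to 202 in CHAC1, where it read on the opposite strand. ATF3 and ASNS each had another window, at a different annotated start, that held no match. For ATF3 that window was at 212614768 to 212615067. Counts per gene do not tell which start was used. ASNS and CHAC1 are described below among the genes with low levels in GSK and COMBO, whereas ATF3 was lowest in GDC, so the same letters stood before genes with different orders of the arms. The full cyclic AMP response element TGACGTCA was in no member window and in 1.85% of all windows. The antioxidant response core TGACNNNGC was in the windows of TRIB3 alone, at the same site in each. It was in 13.3% of all windows and in 16.1% of the genes with a window. Among 37 other genes listed as ATF4 targets, 26 had a window and 10 of these held TGATGNAA. A match describes these letters and shows no binding.

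**Figure D1:**
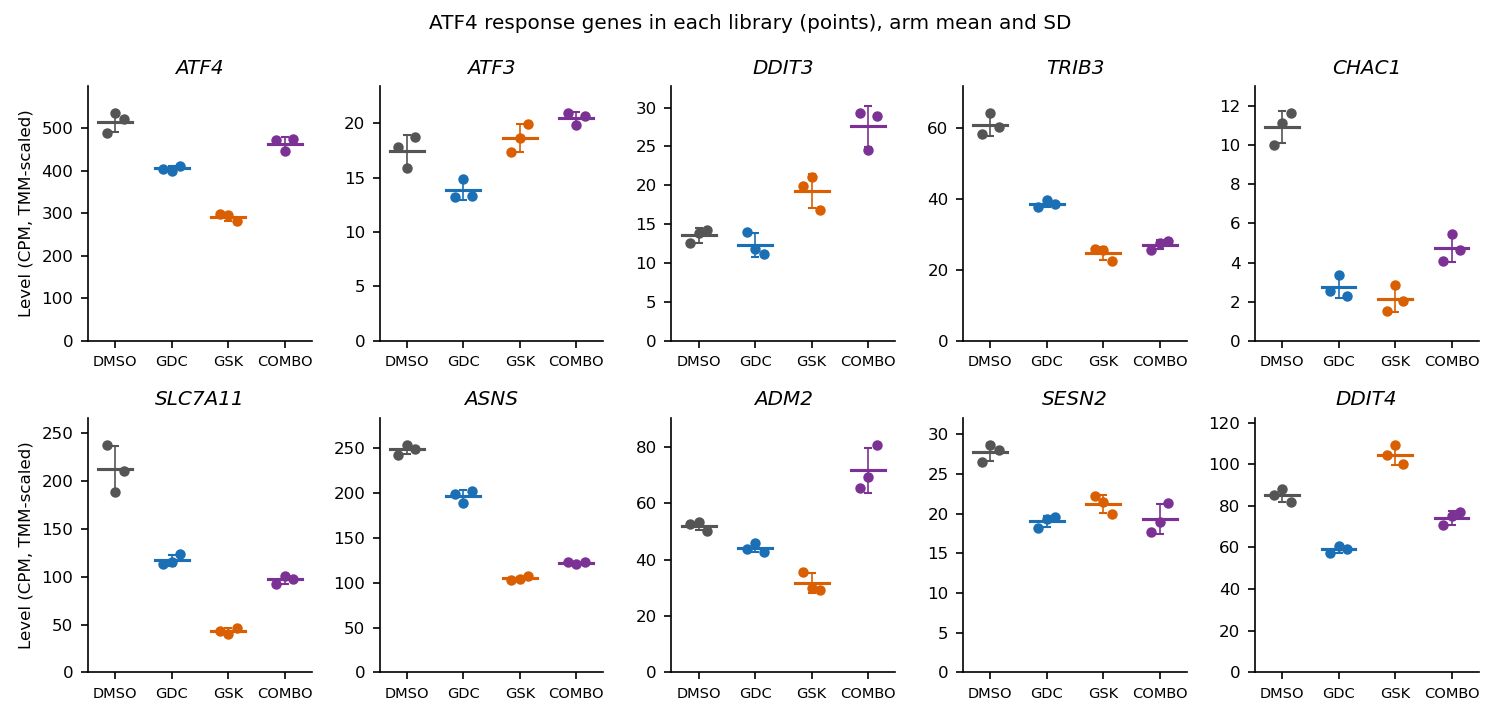
Level of each of the 10 genes (CPM, TMM-scaled, linear axes from 0) in each of the 12 libraries, with 3 points per arm, the arm mean as a horizontal line and the SD as the error bar. ATF4, CHAC1 and ADM2 are lower in GDC and in GSK than in DMSO and higher in COMBO than in either, while TRIB3, ASNS and SLC7A11 stay near or between the single arms in COMBO.

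The genes span a wide range of abundance. Per kilobase of merged exons, levels in DMSO were 197 CPM per kb for ATF4, 50.7 for ASNS, 40.2 for DDIT4, 22.0 for SLC7A11, 18.5 for TRIB3, 12.1 for ADM2, 10.4 for DDIT3, 8.02 for SESN2, 5.32 for CHAC1 and 4.36 for ATF3. ATF4 therefore had the most transcript per length of the 10 and CHAC1 and ATF3 the least. In COMBO the same quantity was 177 for ATF4, 35.1 for DDIT4, 24.9 for ASNS, 21.1 for DDIT3, 16.7 for ADM2, 10.1 for SLC7A11, 8.26 for TRIB3, 5.58 for SESN2, 5.12 for ATF3 and 2.31 for CHAC1. DDIT3 and ADM2 thus passed SLC7A11 and TRIB3, which were above them in DMSO. With the longest annotated transcript as the length, ATF4, ASNS and DDIT4 kept the first places in DMSO, and TRIB3 (25.9) passed SLC7A11 (22.0), DDIT3 (12.7) passed ADM2 (12.2) and ATF3 (8.30) passed SESN2 (8.02) and CHAC1 (7.18).

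ATF4 itself (chromosome 22, 39519695 to 39522683, plus strand, GENCODE 44 on hg38) had its lowest mRNA level in GSK. Its levels were 488, 535 and 521 CPM in the DMSO libraries (replicates A, B and C), 405, 399 and 412 in GDC, 298, 296 and 281 in GSK, then 471, 445 and 474 in COMBO. No arm overlapped another, and the order from low to high was GSK, GDC, COMBO, DMSO. The log2 fold change against DMSO was -0.35 (SE 0.043) in GDC, -0.82 (SE 0.044) in GSK and -0.15 (SE 0.043) in COMBO. COMBO was 1.59-fold above GSK and 1.14-fold above GDC, and it regained 77.0% of the gap between GSK and DMSO. The place of COMBO just below DMSO rests on the scaling, since with library totals the COMBO difference was 0.056 and COMBO stood highest. ATF4 has 4 named pseudogenes in the annotation, with which it may share reads, so its level is uncertain to that extent. Fewer cells with the transcript and less transcript per cell cannot be told apart in such bulk libraries, here and for every gene that follows.

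ATF3 and DDIT3 are transcription factors that ATF4 induces, and neither had a deficit in GSK. ATF3 (chromosome 1, 212565334 to 212620777, plus strand), a stress-induced repressor and dimer partner of the ATF family, was at 17.8, 15.9 and 18.7 CPM with DMSO, 13.3, 14.8 and 13.3 in GDC, 17.4, 18.7 and 19.9 in GSK, then 20.9, 19.8 and 20.7 in COMBO. Its GDC libraries were all below the rest, and neighbours overlapped from DMSO to GSK and from GSK to COMBO. Set against DMSO, the log2 fold changes were -0.34 (SE 0.087) in GDC, 0.090 (SE 0.086) in GSK and 0.22 (SE 0.080) in COMBO. Without DMSO replicate B the GSK value was -0.0025, so no direction was set for that arm.

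DDIT3 (chromosome 12, 57516588 to 57521737, minus strand) encodes CHOP, the factor that joins ATF4 late in prolonged stress and is known for promoting cell death. Its levels were 12.5, 13.9 and 14.2 CPM with DMSO, 14.1, 11.8 and 11.1 in GDC, 19.9, 21.1 and 16.9 in GSK, then 29.3, 24.5 and 28.9 in COMBO. GDC and DMSO overlapped, GSK stood above both, and COMBO stood above GSK in every library. The log2 fold change against DMSO was -0.17 (SE 0.11) in GDC, 0.49 (SE 0.11) in GSK and 0.99 (SE 0.096) in COMBO, a 1.99-fold higher level in COMBO. DDIT3 overlaps MBD6 on the opposite strand, and as the use of strand in the counting was not stated, reads of the neighbour cannot be told apart from its own.

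TRIB3 and CHAC1 are classical targets of ATF4 with CHOP, yet in COMBO, where DDIT3 was highest, both were below DMSO. TRIB3 (chromosome 20, 362835 to 397559, plus strand), a pseudokinase that binds AKT and dampens ATF4 activity, was at 58.3, 64.3 and 60.3 CPM with DMSO, 37.8, 39.8 and 38.6 in GDC, 25.8, 25.7 and 22.5 in GSK, then 25.7, 27.6 and 28.3 in COMBO. GSK and COMBO overlapped, and both lay below GDC, which lay below DMSO. Set against DMSO, the log2 fold changes were -0.66 (SE 0.061) in GDC, -1.31 (SE 0.067) in GSK and -1.17 (SE 0.062) in COMBO. Only 6.91% of the gap between GSK and DMSO was regained in COMBO, so TRIB3 did not share the recovery of ATF4.

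CHAC1 (chromosome 15, 40952962 to 40956512, plus strand) encodes a γ-glutamylcyclotransferase that breaks down glutathione in the cytosol. It was the scarcest member by count, with 95, 201 and 483 reads with DMSO, 29, 55 and 34 in GDC, 14, 36 and 24 in GSK, then 70, 123 and 64 in COMBO. These correspond to 10.0, 11.1 and 11.6 CPM with DMSO, 2.56, 3.39 and 2.28 in GDC, 1.54, 2.85 and 2.03 in GSK, then 4.06, 5.46 and 4.66 in COMBO. The single arms overlapped each other, COMBO lay above both, and DMSO lay above all. COMBO regained 29.5% of the gap between GSK and DMSO. The level was 3.99-fold lower in GDC, 5.03-fold lower in GSK and 2.32-fold lower in COMBO than in DMSO, with log2 SEs of 0.16, 0.18 and 0.14. These were the widest errors among the members. GSK replicate B was the highest of its arm, and without it the GSK difference from DMSO was -2.65 in place of -2.33 on the log2 scale.

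SLC7A11 and ASNS supply amino acids. SLC7A11 (chromosome 4, 138164097 to 138242349, minus strand) is the light chain of the cystine and glutamate exchanger, the entry point of cystine for glutathione synthesis. It was at 238, 188 and 210 CPM with DMSO, 113, 115 and 124 in GDC, 43.3, 40.2 and 46.4 in GSK, then 92.5, 101 and 98.1 in COMBO. The 4 arms did not overlap, with GSK lowest and COMBO between GSK and GDC. The level was 1.80-fold lower in GDC, 4.89-fold lower in GSK and 2.17-fold lower in COMBO than in DMSO (log2 SEs of 0.069, 0.078 and 0.069). COMBO was thus 2.25-fold above GSK but 1.21-fold below GDC, and it regained 31.9% of the gap between GSK and DMSO. With library totals the difference between COMBO and GDC shrank from -0.27 to -0.097 on the log2 scale.

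ASNS (chromosome 7, 97851677 to 97872542, minus strand), asparagine synthetase, makes asparagine from aspartate and glutamine. Its levels were 242, 253 and 249 CPM with DMSO, 198, 188 and 202 in GDC, 103, 104 and 107 in GSK, then 123, 120 and 123 in COMBO. The arms did not overlap, and GSK and COMBO stood well below DMSO and GDC. Set against DMSO, the log2 fold changes were -0.34 (SE 0.042) in GDC, -1.25 (SE 0.045) in GSK and -1.03 (SE 0.043) in COMBO. The gap between GSK and DMSO was regained by 12%, close to the share of TRIB3. ASNS also has 4 named pseudogenes, with the same uncertainty as for ATF4.

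ADM2 (chromosome 22, 50481543 to 50486440, plus strand), a secreted peptide of the calcitonin family, was low in either single arm and highest in COMBO. It was at 52.5, 53.2 and 50.3 CPM with DMSO, 43.9, 46.0 and 42.7 in GDC, 35.7, 30.0 and 29.2 in GSK, then 65.4, 69.2 and 80.7 in COMBO. Every arm was apart from its neighbours, and COMBO was the highest. Set against DMSO, the log2 fold changes were -0.23 (SE 0.076) in GDC, -0.72 (SE 0.082) in GSK and 0.46 (SE 0.072) in COMBO, and COMBO regained 197% of the gap between GSK and DMSO. COMBO replicate C was the highest library, and without it the COMBO difference was 0.34. ADM2 overlaps SBF1 on the opposite strand, with the same limit as for DDIT3.

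SESN2 and DDIT4 restrain mTORC1, SESN2 as a leucine sensor and DDIT4, also called REDD1, through the TSC complex. SESN2 (chromosome 1, 28259518 to 28282491, plus strand) was at 26.5, 28.7 and 28.1 CPM with DMSO, 18.2, 19.3 and 19.6 in GDC, 22.2, 21.5 and 20.0 in GSK, then 17.6, 19.0 and 21.3 in COMBO. The 3 inhibitor arms overlapped their neighbours and all lay below DMSO, so SESN2 was low alone and together to much the same degree. Its log2 fold changes were -0.55 (SE 0.076), -0.40 (SE 0.078) and -0.54 (SE 0.073).

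DDIT4 (chromosome 10, 72273919 to 72276036, plus strand) was at 85.1, 88.3 and 81.9 CPM with DMSO, 57.5, 60.8 and 59.1 in GDC, 104, 109 and 99.9 in GSK, then 70.7, 75.1 and 77.3 in COMBO. GDC lay below DMSO and GSK above it, with COMBO between the single arms and no overlap between arms. The log2 fold changes were -0.52 (SE 0.054) in GDC, 0.30 (SE 0.053) in GSK and -0.19 (SE 0.052) in COMBO. With library totals the COMBO value was 0.014, so its side of DMSO depended on the scaling.

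Set against DMSO, most of these transcripts had lower fitted values in the single arms. In GDC the member differences ran from -2.00 (CHAC1) to -0.17 (DDIT3) with a median of -0.43 on the log2 scale, against a median of 0.016 over all tested genes. Of the 10, 9 were called lower and 0 higher at an adjusted p under 0.05, and DDIT3 was not called, beside 20.0% of all tested genes called lower and 20.0% called higher. In GSK the differences ran from -2.33 (CHAC1) to 0.49 (DDIT3) with a median of -0.77, against 0.058 over all genes. There 7 were called lower and 2 higher (DDIT3 and DDIT4), beside 35.7% of all tested genes lower and 40.0% higher. ATF4, TRIB3, CHAC1, SLC7A11, ADM2, ASNS and SESN2 were below DMSO in both single arms. As the members were picked on these contrasts, nothing is read from the counts.

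In COMBO the member differences from DMSO ran from -1.21 (CHAC1) to 0.99 (DDIT3) with a median of -0.37, against 0.054 over all genes. Here 7 members were called lower and 3 higher (ATF3, DDIT3 and ADM2), beside 39.2% of all tested genes lower and 43.3% higher. ATF3 was not called with DESeq2, with no filter, with the compared arms only, or without DMSO replicate B, COMBO replicate A or COMBO replicate C, where its difference was 0.15 to 0.19 in place of 0.22. ATF3, DDIT3 and ADM2 thus stood above vehicle, while ATF4, TRIB3, CHAC1, SLC7A11, ASNS, SESN2 and DDIT4 stood below it. Transcription factors were on each side, as ATF4 itself was at -0.15. The 3 comparisons with DMSO share its libraries. With library totals the calls over all genes were 6977 higher and 3931 lower in GSK, against 5676 and 5072, and 7477 and 4342 in COMBO, against 6148 and 5555.

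**Figure D2:**
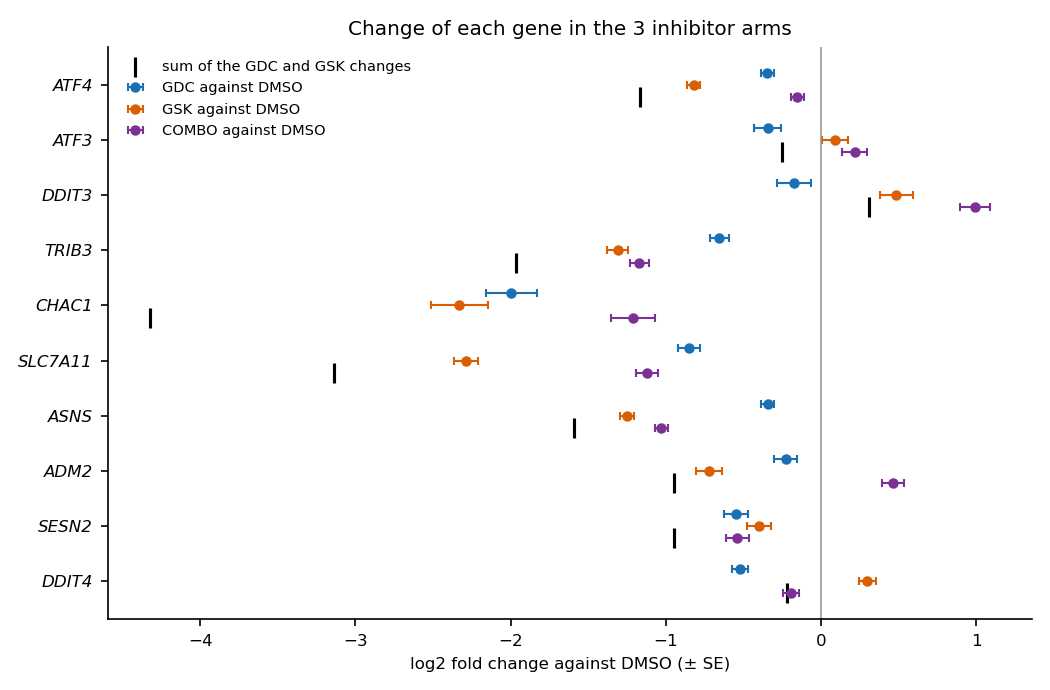
log2 fold change against DMSO (points, with SE as error bars) of each of the 10 genes in GDC, GSK and COMBO, with the sum of the GDC and GSK changes as a black tick. The COMBO point lies to the right of the tick in all 10 genes, by 0.028 for DDIT4 (-0.0018 without GSK replicate C) and by 3.11 for CHAC1, and the COMBO points of ATF4 and DDIT4 move to above 0 when libraries are scaled by their totals.

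COMBO was then set against each single arm. Against GDC, 6 members were called higher and 3 lower (TRIB3, SLC7A11 and ASNS), with a median of 0.26 against 0.018 over all genes, beside 37.9% of tested genes higher and 38.0% lower. Against GSK, 6 members were called higher and DDIT4 was called lower, with a median of 0.36 against -0.014 over all genes, beside 19.0% higher and 26.9% lower. With library totals the calls over all genes became 6875 higher and 4068 lower against GDC, from 5383 and 5395, and 3412 and 3111 against GSK, from 2698 and 3818. COMBO means exceeded both single arms in 5 members, ATF4, ATF3, DDIT3, CHAC1 and ADM2. Only ATF4, CHAC1 and ADM2 were also below DMSO in both single arms. The full pattern of a deficit with either agent and a higher level with both thus held for 3 of 10. The share of all tested genes with these orders of the arms is not given here, so nothing is read from the counts of members. SLC7A11 and ASNS were above GSK and below GDC, TRIB3 and SESN2 overlapped GSK, and DDIT4 lay between the single arms.

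On the log2 scale the single-agent differences can be added to give the value that COMBO would have with no interaction. That sum was -4.33 for CHAC1, where COMBO stood at -1.21, and -3.14 for SLC7A11, where COMBO stood at -1.12. For TRIB3 it was -1.97 against -1.17, for ASNS -1.59 against -1.03, for ATF4 -1.17 against -0.15, for ADM2 -0.95 against 0.46 and for SESN2 -0.95 against -0.54. The 3 remaining genes had sums of -0.25 (ATF3), 0.31 (DDIT3) and -0.22 (DDIT4), against 0.22, 0.99 and -0.19 in COMBO. COMBO was above the sum in each of the 10. For DDIT4 the excess was only 0.028 (SE 0.076), which became -0.0018 without GSK replicate C. Over all tested genes the median departure of COMBO from the sum was -0.063. The 10 genes were chosen with their pattern known, so nothing is read from how many lay above the sum.

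The interaction, the COMBO difference from DMSO less those of GDC and GSK, is the size of that departure. It was 3.11 (SE 0.26) for CHAC1, 2.02 (SE 0.10) for SLC7A11, 1.41 (SE 0.11) for ADM2 and 1.01 (SE 0.061) for ATF4. It was 0.80 for TRIB3, 0.68 for DDIT3, 0.56 for ASNS, 0.47 for ATF3 and 0.41 for SESN2, and 0.028 (SE 0.076) for DDIT4. Of the members 9 were called higher and 0 lower, with a median of 0.74 against -0.063 over all genes, beside 4.86% of all tested genes called higher and 16.5% called lower. With the size factors of DESeq2 the calls over all genes were 994 higher and 1830 lower, against 690 and 2344, and the 10 genes kept their count. 

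**Figure D3:**
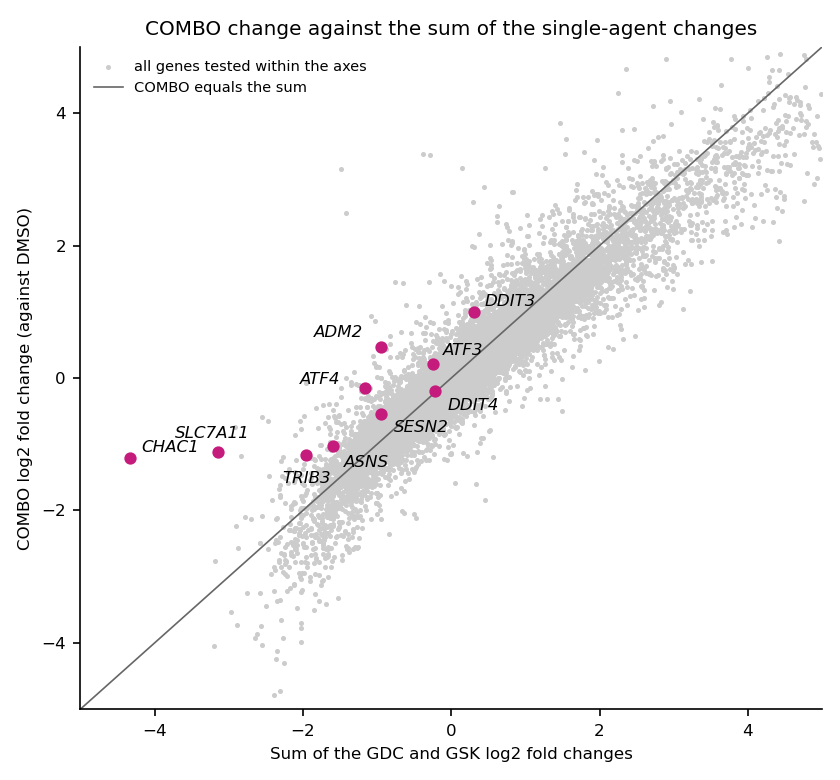
COMBO log2 fold change against DMSO (vertical) plotted on the sum of the GDC and GSK log2 fold changes (horizontal) for the tested genes (grey, 14092 of 14189 lie within the axes) and for the 10 genes (coloured and named), with the line where COMBO equals the sum. All 10 lie on or above the line, CHAC1 and SLC7A11 farthest to the left at sums of -4.33 and -3.14.

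The genes whose 3 changes against DMSO were most like those of CHAC1, SLC7A11 and DDIT4 were sought among 12339 genes by the root mean square of the 3 log2 differences. For CHAC1 the nearest was SLC7A11 (0.66), followed by BCAT1 (0.87), the cytosolic transaminase of branched-chain amino acids, and the mitochondrial folate carrier SLC25A32 (0.91). For SLC7A11 they were BCAT1 (0.35), RNF138 (0.43) and the neutral amino acid transporter SLC1A5 (0.44). BCAT1 stood at -0.59, -1.88 and -1.47 in GDC, GSK and COMBO. The distances of CHAC1 were larger than those of SLC7A11. They are not scaled by the size or error of the changes, both of which were largest for CHAC1 among the members. Genes with a mean log2 CPM under 1 were left out of the search. For DDIT4 the nearest were PPARGC1A (0.054), PMP22 (0.060) and HUNK (0.063). Its own changes were smaller than those of CHAC1 and SLC7A11, so these short distances cannot be compared with theirs.

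Lists of 115 companion genes around ATF4, of which 110 were tested, give the setting of the members. They were not picked for how they moved within these arms, but they were drawn up with earlier results of these data known. FOSL1, FGF21, INHBE, CDO1 and ADM did not pass the filter. Adjusted p-values are by edgeR's quasi-likelihood test over all 14189 genes.

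Upstream of ATF4, the list of eIF2α phosphorylation and its reversal held 10 genes. In COMBO 4 rose and 3 fell against DMSO, beside 43.3% and 39.2% of all tested genes, with a median of 0.099 against 0.054 over all genes. PPP1R15A, the stress-induced phosphatase subunit GADD34 that ATF4 and CHOP induce, went from 3.29 CPM ± 0.296 in DMSO to 4.50 ± 0.541 in GDC, 8.12 ± 1.89 in GSK and 12.6 ± 0.393 with COMBO (SD, n = 3), a log2 fold change of 1.95 in COMBO (adjusted p = 5.36e-11). Its constitutive counterpart PPP1R15B fell, from 185 CPM ± 4.67 in DMSO to 95.9 ± 6.35 in COMBO (log2 fold change -0.95, adjusted p = 1.14e-11). PPP1R15A was thus highest in COMBO, as DDIT3 was. Its interaction was 0.16 (adjusted p = 0.649), and that of PPP1R15B was 0.38 (adjusted p = 0.00371). OMA1, the mitochondrial protease that starts the DELE1 branch, had an interaction of -0.39 (adjusted p = 0.000688).

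On the list of possible dimer partners of ATF4, 7 of 14 tested genes rose and 5 fell in COMBO, near the 43.3% and 39.2% of all tested genes. The interaction was called positive in 5 and negative in 0, beside 4.86% and 16.5% of all genes. These counts include NUPR1, a stress protein that is not a basic leucine zipper factor. Its mean level was 244 CPM with COMBO against 112 with DMSO. Counts for the list without NUPR1 are not given here. FOSL2, an AP-1 subunit, rose most in COMBO, from 12.9 CPM ± 0.353 to 67.9 ± 4.07 (log2 fold change 2.39, adjusted p = 3.43e-16), and it was already at 50.3 ± 1.20 in GSK. ATF5, itself under eIF2α control, fell from 32.2 CPM ± 2.48 in DMSO to 22.0 ± 1.43 in GDC, 17.3 ± 0.672 in GSK and 12.7 ± 0.960 with COMBO (log2 fold change -1.35, adjusted p = 2.43e-12). ATF5 was thus lowest in COMBO, where ATF4 was above both single arms, and its interaction was 0.12 (adjusted p = 0.535). JDP2, a repressor that pairs with ATF3 and JUN proteins, had the largest positive interaction of the list, 1.01 (adjusted p = 9.60e-06), with 24.9, 16.9, 12.6 and 16.9 CPM in DMSO, GDC, GSK and COMBO. JDP2 therefore followed the order of ATF4 in the single arms.

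The other ATF4 targets include enzymes of serine and one-carbon synthesis, amino acid transporters and aminoacyl-tRNA synthetases. Of 35 tested, 25 fell and 0 rose in GDC, beside 20.0% of all tested genes in each direction. In GSK 32 fell and 3 rose, beside 35.7% lower and 40.0% higher over all genes, and in COMBO 31 fell and 3 rose, beside 39.2% and 43.3%. The list medians were -0.29, -0.79 and -0.88, against 0.016, 0.058 and 0.054 over all genes. PSAT1, of serine synthesis, went from 469 CPM ± 7.20 in DMSO to 293 ± 8.47 in GDC, 101 ± 3.48 in GSK and 99.9 ± 4.28 with COMBO (COMBO log2 fold change -2.23, adjusted p = 3.39e-19). PHGDH, the first enzyme of the same pathway, went from 584 CPM ± 29.8 to 282 ± 9.91 in COMBO and had the most negative interaction of the list, -0.45 (adjusted p = 3.03e-05). The interaction was called positive in 17 of the 35 and negative in 5, beside 4.86% and 16.5% of all genes, with a median of 0.21. Most of these targets were thus still below DMSO in COMBO, as ASNS and TRIB3 were.

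GDF15 and SLC6A9 had the largest positive interactions among these targets. GDF15, a secreted stress cytokine, rose from 28.9 CPM ± 2.06 in DMSO to 41.0 ± 1.18 in GSK and 79.8 ± 4.33 in COMBO, and fell to 23.4 ± 1.49 in GDC. Its COMBO log2 fold change was 1.47 (adjusted p = 1.56e-14) and its interaction 1.26 (adjusted p = 1.51e-08), an order of arms shared with DDIT3. SLC6A9, a glycine transporter, was at 17.3 CPM ± 0.668 with DMSO, 13.4 ± 0.336 in GDC, 6.17 ± 0.555 in GSK and 12.6 ± 0.770 with COMBO, with an interaction of 1.37 (adjusted p = 5.68e-07). Its partial return from GSK was of the kind seen for SLC7A11.

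The parallel arms of the unfolded protein response act through ATF6 and XBP1. Of their 20 genes, 3 rose and 12 fell in COMBO against DMSO, beside 43.3% and 39.2% of all tested genes, with a median of -0.33. The interaction was called positive in 0 and negative in 10, beside 4.86% and 16.5%. SDF2L1, a chaperone cofactor, fell from 42.1 CPM ± 6.12 to 16.5 ± 1.01 in COMBO (log2 fold change -1.36, adjusted p = 7.16e-11). PDIA6, a disulfide isomerase, was at 303, 305 and 296 CPM in DMSO, GDC and GSK and at 206 ± 4.17 in COMBO (log2 fold change -0.56, adjusted p = 5.87e-10). ERN1, the gene of the sensor IRE1α, rose to 16.5 CPM ± 1.03 from 10.7 ± 0.406 (log2 fold change 0.61, adjusted p = 2.18e-06). SDF2L1 and PDIA6 were thus lowest in the arm where DDIT3 was highest.

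Around SLC7A11 and CHAC1, 2 of 11 tested genes of cystine and glutathione metabolism rose and 7 fell in COMBO, beside 43.3% and 39.2% of all tested genes, with a median of -0.32. SLC3A2, the heavy chain that carries SLC7A11 to the membrane, was at 164 CPM ± 6.31 with DMSO, 114 ± 2.70 in GDC, 116 ± 5.62 in GSK and 136 ± 8.09 with COMBO. Its interaction was 0.74 (adjusted p = 7.00e-07), the largest of the list, so the heavy chain departed from the sum in the same direction as the light chain. Its COMBO difference from DMSO was -0.28 (adjusted p = 5.63e-05), and -0.069 (adjusted p = 0.239) with library totals. GCLM, the modifier subunit of the rate-limiting enzyme of glutathione synthesis, fell from 130 CPM ± 4.58 to 87.6 ± 3.47 in GDC, 61.2 ± 2.80 in GSK and 49.0 ± 2.46 in COMBO (COMBO log2 fold change -1.40, adjusted p = 2.88e-15). GSS, which completes glutathione, was at 111 CPM ± 3.59 in COMBO against 138 ± 5.28 in DMSO, with an interaction of -0.56 (adjusted p = 1.13e-05). OPLAH, which returns 5-oxoproline to glutamate after glutathione breakdown by enzymes such as CHAC1, rose from 22.2 CPM ± 1.58 to 33.8 ± 2.40 in COMBO (log2 fold change 0.59, adjusted p = 3.64e-07).

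SLC7A11 is also a target of NRF2, the oxidant-responsive factor. Of 14 genes of NRF2 and its targets, 3 rose and 10 fell in COMBO, beside 43.3% and 39.2% of all tested genes, with a median of -0.50. The interaction was called positive in 1 and negative in 6, beside 4.86% and 16.5%. SRXN1 fell from 209 CPM ± 5.55 in DMSO to 152 ± 3.24 in GDC, 114 ± 3.48 in GSK and 84.1 ± 3.05 with COMBO (COMBO log2 fold change -1.32, adjusted p = 7.28e-16), with an interaction of 0.023 (adjusted p = 0.837). TXN, thioredoxin, was at 189 CPM ± 2.64 with DMSO, 203 ± 3.21 in GDC, 200 ± 4.48 in GSK and 147 ± 8.64 with COMBO (COMBO log2 fold change -0.36, adjusted p = 4.32e-07). HMOX1, haem oxygenase, rose from 23.7 CPM ± 1.48 to 45.7 ± 2.86 in GSK and 57.6 ± 4.38 in COMBO and was the gene with the positive interaction, 0.82 (adjusted p = 2.28e-05). SRXN1 and GCLM thus declined stepwise to COMBO, an order that SLC7A11, lowest in GSK, did not have.

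**Figure D4:**
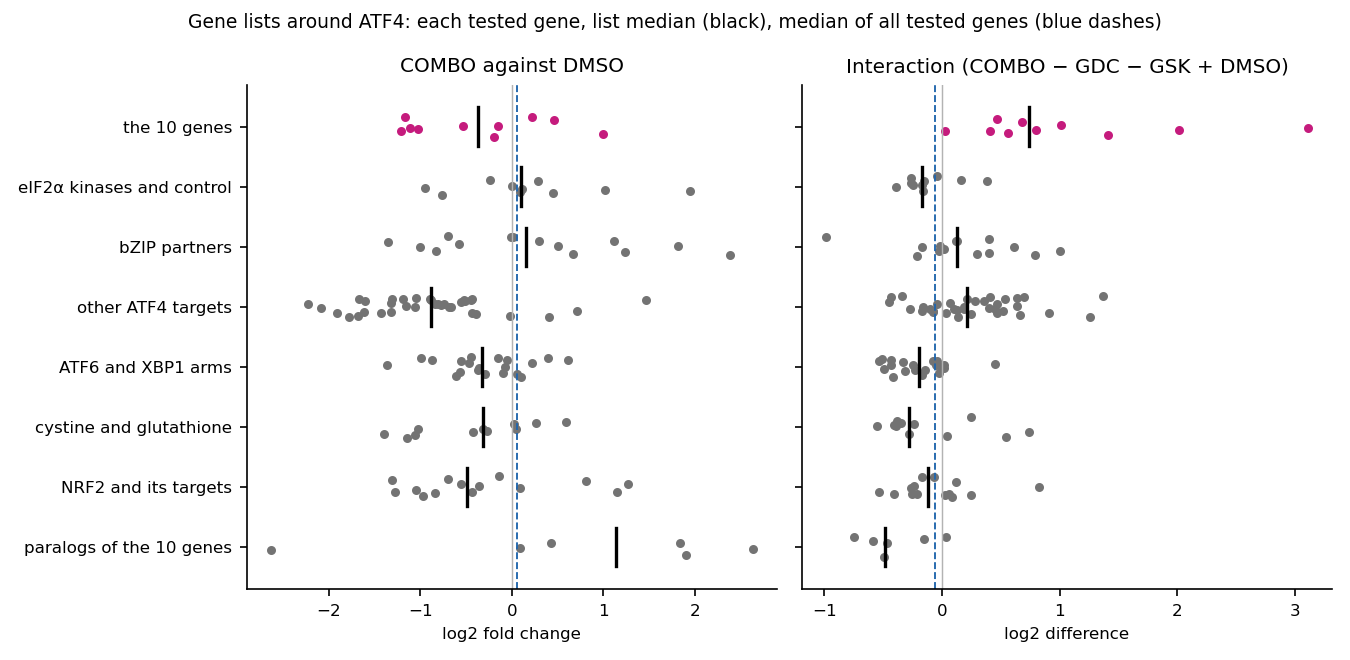
log2 fold change in COMBO against DMSO (left) and interaction on the log2 scale (right) of the 10 genes (coloured) and of each tested gene of the 7 companion lists (grey), with the list median as a black bar and the median of all tested genes as a blue dashed line. The other ATF4 targets have a COMBO median of -0.88 with most genes left of 0, and interaction medians are 0.74 for the 10 genes and 0.21 for the other ATF4 targets.

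The paralogs of the members are given beside them, and 6 of 7 were tested. SESN1, a sestrin under p53 and FOXO control, rose from 64.4 CPM ± 5.98 in DMSO to 99.0 ± 4.84 in GDC, 284 ± 5.07 in GSK and 397 ± 9.15 with COMBO (COMBO log2 fold change 2.63, adjusted p = 6.14e-19). SESN3, a FOXO target, rose from 52.3 CPM ± 5.07 to 72.1 ± 6.03, 224 ± 10.1 and 185 ± 3.07 in the same order (COMBO log2 fold change 1.84, adjusted p = 8.18e-16). Both thus stood above DMSO in the arms where SESN2 stood below it. TRIB2, a relative of TRIB3, rose from 97.0 CPM ± 8.13 to 442 ± 17.4 in GSK and 364 ± 15.5 in COMBO (COMBO log2 fold change 1.90, adjusted p = 2.78e-16), and TRIB1 from 21.0 ± 2.17 to 27.8 ± 1.97 in COMBO (0.43, adjusted p = 4.07e-05).

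CHAC2, the constitutive relative of CHAC1, fell without recovery, from 11.7 CPM ± 0.437 in DMSO to 6.73 ± 0.805 in GDC, 4.59 ± 0.875 in GSK and 1.85 ± 0.278 with COMBO. Its COMBO log2 fold change was -2.63 (adjusted p = 1.08e-12) and its interaction -0.47 (adjusted p = 0.146), where that of CHAC1 was 3.11. From GSK to COMBO the CHAC2 level fell further while that of CHAC1 was higher. DDIT4L, the relative of DDIT4, was at 24.5 CPM ± 1.39 with DMSO, 24.4 ± 2.38 in GDC, 36.6 ± 0.119 in GSK and 25.8 ± 3.09 with COMBO. Like DDIT4 it was highest in GSK (log2 fold change 0.58, adjusted p = 2.97e-06), and its interaction was -0.50 (adjusted p = 0.00531).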

How the data were processed

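Polyadenylated RNA of 12 libraries was aligned by the authors with STAR to hg38 and counted per gene with HTSeq (versions, annotation release and use of strand not given in the sources used here). The deposited files give raw counts, whole numbers of reads for each symbol. Rows that name no gene held 24.2%, 25.9%, 29.3% and 32.4% of reads in DMSO, GDC, GSK and COMBO on average and stayed out of library sizes and tests. A deposited table of normalized values was not used here. Replicates differed by more than sampling noise (chi-square over its degrees of freedom, 1.76 to 6.18), and each library was kept as a replicate.

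The counts were fitted in R 4.3.3 by edgeR 4.0.16 and its quasi-likelihood test, with TMM scaling, filterByExpr and 1 coefficient per arm over all 12 libraries. The common biological coefficient of variation was 0.0499. Calls had a Benjamini-Hochberg adjusted p under 0.05 over 14189 genes, and tests were two-sided. The fit was tested on simulated data. The 10 genes, the companion lists and the tests were chosen with earlier results of these data known. Text names all 10 genes, their paralogs, EZH2, the 3 nearest genes of CHAC1, SLC7A11 and DDIT4, and, from each other list, the called genes (mean log2 CPM of at least 1) with the largest difference each way in COMBO and in the interaction. Alternatives were DESeq2 1.42.0, its size factors within edgeR, scaling by totals, omission of the filter, a minimum mean of 1 CPM, compared arms only, a replicate block and leaving out each library. A further luminal marker on the list is not reported here. Positions are from GENCODE 44, which placed 82.8% of symbols, and lengths are merged exons.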

Additional observations from a re-analysis of the deposited data

Results flagged for a closer look

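In ATF4, CHAC1, SLC7A11, ADM2 and ASNS the difference made by GDC-0941 had opposite signs without and with GSK126 in every library, GDC lying below DMSO and COMBO above GSK. The size of the gap between these effects was 1.01 for ATF4, 3.11 for CHAC1, 2.02 for SLC7A11, 1.41 for ADM2 and 0.56 for ASNS on the log2 scale. It was not tested, since these genes were chosen for it. The share of all tested genes with such opposite signs is not given here.

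For the companion genes the gap between COMBO and the added changes of GDC and GSK was tested by edgeR's quasi-likelihood interaction. It was positive for SLC6A9 (1.37), GDF15 (1.26), JDP2 (1.01), HMOX1 (0.82), SLC3A2 (0.74), PSAT1 (0.67), PPP1R15B (0.38) and GCLM (0.25). It was negative for SESN3 (-0.75), TRIB2 (-0.59), GSS (-0.56), TXN (-0.54), PDIA6 (-0.53), DDIT4L (-0.50), PHGDH (-0.45), SDF2L1 (-0.41), OPLAH (-0.41), OMA1 (-0.39) and EZH2 (-0.33). Adjusted p-values ran from 1.51e-08 for GDF15 to 0.0438 for SDF2L1.

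Of these, 5 lost the call when single libraries were left out. SDF2L1 was the least stable, with an adjusted p from 0.0187 to 0.256 over 18 alternatives, and lost it without any of 10 libraries (all but DMSO replicate B and GSK replicate C), with either DESeq2 setting, with library totals and with a minimum mean of 1 CPM. OPLAH lost it without DMSO replicate A or C, GDC replicate A or C, or GSK replicate A or B (adjusted p up to 0.119). For EZH2 it was lost without DMSO replicate C, GDC replicate A, GSK replicate B or COMBO replicate A (up to 0.0915). The EZH2 call was also lost with no filter (0.0745). GCLM lost it without GSK replicate C or COMBO replicate B (0.0731 and 0.0647), and DDIT4L without GDC replicate C (0.0529).

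Reads outside genes reached 21.8% of all reads in COMBO, above 14.2% in DMSO, in rows that no comparison used.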

How the results depend on the processing

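The numbers of the 10 genes called in each comparison stayed within 1.5 times of those reported under every alternative, 9 higher in the interaction among them. Scaling by library totals moved the median of all genes in COMBO against DMSO from 0.054 to 0.26 and in GSK from 0.058 to 0.21, and turned ATF4 in COMBO to 0.056, DDIT4 in COMBO to 0.014 and PDIA6 in GSK to 0.12, besides small differences that were called in neither fit. It ended the calls of ATF4 and DDIT4 in COMBO and of SLC7A11 in COMBO against GDC, and gave calls to ATF3 in GSK, SESN2 in COMBO against GDC and TRIB3 in COMBO against GSK. It also raised companion genes called higher in COMBO against GDC from 24 to 37, and lifted GSS in COMBO to -0.11 (adjusted p = 0.0586). With no filter, companion genes called higher in GDC numbered 12 in place of 20, and those with a negative interaction 20 in place of 33. Leaving out each library in turn gave 12 to 21 companion genes called higher in GDC (lowest without GDC replicate B) and 18 to 31 with a negative interaction (lowest without DMSO replicate A or GDC replicate C). TRIB1 lost its call in GSK without DMSO replicate C (adjusted p = 0.0991) or GSK replicate B (0.0539). Over all genes, 690 positive interactions became 1638 with no filter and 1151 with a minimum mean of 1 CPM, and 2344 negative ones became 1319 with no filter. Without single libraries the positive ones ranged from 732 to 1178 (without DMSO replicate B), the negative ones from 1279 (without GDC replicate B) to 2231, and genes called higher in GDC from 1844 (without DMSO replicate C) to 2879, against 2841. The causes were not tested. Replicate letters were not taken to pair the libraries: same-letter deviations correlated above 0.1 in 2 of 18 pairs (-0.0839 to 0.188). Those 2 were GDC and COMBO replicates A (0.116) and B (0.188), and replicates C of these arms were at 0.073. Whether these arms shared any handling was not tested. With the replicate block, 9 of the 10 genes were still called in the interaction, and companion genes called numbered 26 higher and 31 lower, against 27 and 33. CHAC1, with 14 to 36 reads per GSK library, is the gene whose depth limits precision most.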
